A study of Homo sapiens with 6 samples.

Results

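STC1, which encodes the secreted glycoprotein hormone stanniocalcin 1, and ESM1, which encodes the secreted proteoglycan endocan, are 2 of the 1305 genes in the authors' deposited table of changed genes. They were taken from it by gene symbol and were chosen on their large difference in this same comparison, so their levels below are a description and carry no test. Both proteins leave the cell, which is what groups them here. RNA was sequenced from NCI-H292, an established human lung cancer cell line, in 6 libraries. The 3 DMSO libraries came from cells given the solvent DMSO at a dilution of 1 in 1000 for 48 hours. The 3 mitoxantrone libraries came from cells given 50 nM mitoxantrone, an anticancer topoisomerase II poison, for the same 48 hours. Both groups are the one cell line. Whether each library had a culture of its own is not stated, so spreads and p-values measure only differences between these libraries, which may be technical.

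Stanniocalcin 1 was first known as a hormone of fish that lowers calcium uptake. In mammals it acts mostly within tissues, on calcium and phosphate handling, and like its relative stanniocalcin 2 it inhibits the pappalysins, proteases that free insulin-like growth factors from their binding proteins. Its gene is a known target of the hypoxia-inducible factors (HIF). Endocan carries a chondroitin or dermatan sulphate chain on a small protein core that resembles the N-terminal domain of the insulin-like growth factor binding proteins (IGFBP). It is best known from activated endothelium, where vascular endothelial growth factor (VEGF) and inflammatory cytokines raise it, and it binds hepatocyte growth factor and the leukocyte integrin LFA-1.

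The promoter of ESM1 in RefSeq is shown as the regulatory DNA next to the start of its RefSeq transcripts. The window covers the 250 bases before the start of the gene in RefSeq (GRCh38.p14, chr5:54985594-54985843, minus strand), printed in the direction of transcription. Capitals mark the motifs found.
ESM1: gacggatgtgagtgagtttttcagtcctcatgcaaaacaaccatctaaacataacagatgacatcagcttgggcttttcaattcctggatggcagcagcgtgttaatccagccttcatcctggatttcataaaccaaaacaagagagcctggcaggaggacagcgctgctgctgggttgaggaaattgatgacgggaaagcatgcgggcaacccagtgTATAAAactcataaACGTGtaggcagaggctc
Of 4 motifs searched on both strands, a TATA box (TATAAA) lay 32 to 27 bases before the start and a core of the hypoxia response element (ACGTG) 18 to 14 bases before it, without overlap. The AP-1 site (TGANTCA) and the cAMP response element (TGACGTCA) had 0 matches. Among 35116 RefSeq promoters of the same length, 10.7% held TATAAA, 18.5% ACGTG, 6.57% TGANTCA and 1.65% TGACGTCA. GENCODE v29 has 4 transcripts of the gene: 1 starts at the RefSeq start, 1 starts 70 bases upstream, inside the window, and 2 start 37.1 kb upstream. The counts pool all of them, so reads of the distant start are not told apart. A match describes letters only, and no binding was measured. Of the members, 1 had a promoter in the RefSeq table used.

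STC1 was 24.4-fold higher in the mitoxantrone libraries. Counts are given as normalized reads, which are raw reads divided by the size factor of the library. The DMSO libraries held 117, 70.1 and 69.4 normalized reads of STC1, and the mitoxantrone libraries 1847, 2146 and 2273. Every mitoxantrone library lay far above every DMSO library: the lowest of the former was 15.8 times the highest of the latter. The means were 85.4 ± 27.2 for DMSO and 2089 ± 219 for mitoxantrone (SD, n = 3 each). Among the controls, DMSO replicate 1 stood above the others. Its 136 raw reads had a 95% exact Poisson interval, after scaling, of 98 to 138 normalized reads. That lay above the intervals of replicate 2 (68 reads, 54.4 to 88.8) and replicate 3 (81 reads, 55.1 to 86.3). The difference was not tested. These intervals cover counting error only, since reads amplified by PCR are not independent molecules. The coefficient of variation between the DMSO libraries was 31.8%, where counting alone would give 10.3%, and between the mitoxantrone libraries it was 10.5%, where counting alone would give 2.27%.

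ESM1 was much scarcer and 19.5-fold higher with mitoxantrone. It had 16.3, 15.5 and 4.28 normalized reads in the DMSO libraries and 261, 230 and 211 in the mitoxantrone libraries. Again no library of one treatment reached those of the other, and the lowest mitoxantrone library was 13 times the highest DMSO library. The means were 12 ± 6.72 (SD, n = 3) and 234 ± 25.1 (SD, n = 3). The control level rests on 39 reads over 3 libraries, against 649 reads with mitoxantrone. DMSO replicate 3 was the low one, with 5 reads and an interval of 1.39 to 10 normalized reads. That interval still touched those of replicates 1 (9.83 to 25.5) and 2 (8.65 to 25.5). Overlap of intervals does not test a difference, and the difference was not tested. The coefficient of variation was 55.9% with DMSO, where counting alone would give 27.7%, and 10.7% with mitoxantrone, where counting alone would give 6.8%. Without DMSO replicate 3 the fold of means was 14.7, and without DMSO replicate 1 it was 23.8.

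**Figure D1:**
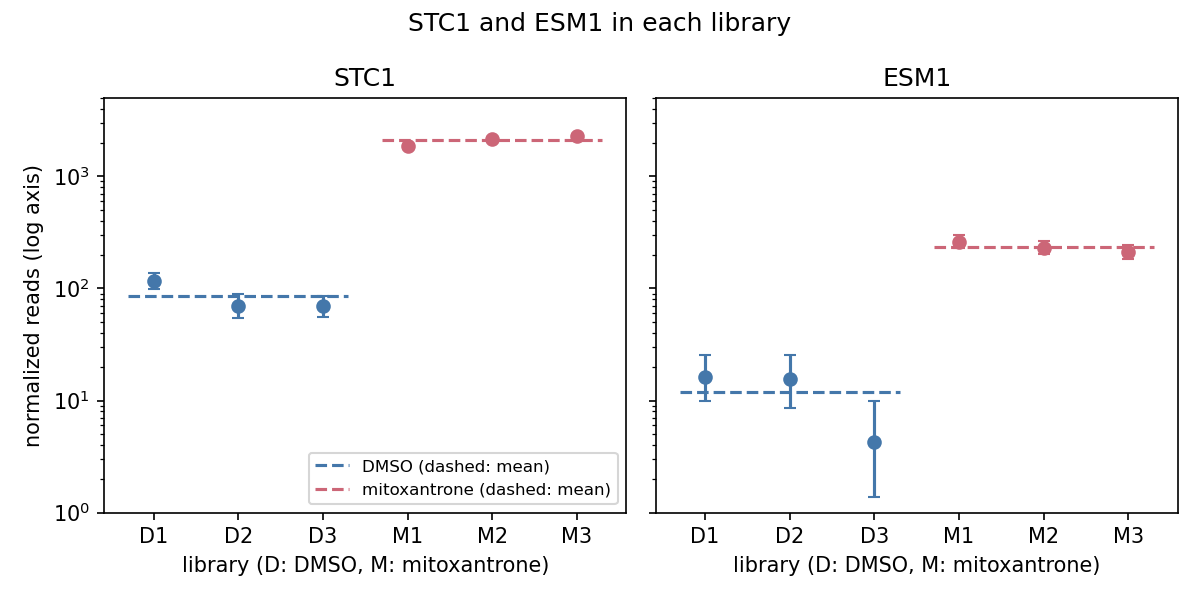
Normalized reads of STC1 (left) and ESM1 (right) in each of the 6 libraries, on a log axis; points are libraries, bars are 95% exact Poisson intervals of the counts and dashed lines are group means. For both genes the 3 mitoxantrone libraries sit above all 3 DMSO libraries, and the low DMSO replicate 3 of ESM1 (4.28 normalized reads) has the widest bar.

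The groups did not overlap for either gene, with mitoxantrone higher. That was so for 60.1% of the genes in the table, and 98.6% did not overlap in one direction or the other; since the table holds genes already selected as changed, nothing is read from it for the members. The authors' deposited table gave log2 fold changes of 4.42 (standard error 0.16) for STC1 and 3.82 (standard error 0.24) for ESM1, with adjusted p-values of 2.3e-173 and 6.6e-53. These are the values that placed them in the table, whose smallest absolute log2 fold change was 1.0001 and whose largest adjusted p was 0.0428. By p-value STC1 ranked 1 and ESM1 44 among the 18313 genes that the authors had tested. The authors' folds were smaller than the log2 ratios of group means, 4.61 for STC1 and 4.28 for ESM1. Size factors taken from the table itself centre a set of genes selected as changed. With such factors the log2 ratios were 3.92 (TMM) and 3.62 (DESeq2) for STC1 and 3.59 and 3.30 for ESM1.

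By the authors' log2 fold change STC1 stood first and ESM1 ninth of the listed genes. By the plain ratio of group means, 15 listed genes had a larger fold than STC1, and 1 of these, ANGPTL4, reached the median level of the table (64.2 normalized reads). For ESM1 the number was 23, of which ANGPTL4 and STC1 reached that level. The other larger folds belonged to genes below that level, and 10 listed genes had 0 reads in all DMSO libraries and so no ratio. By the difference of group means rather than their ratio, STC1 ranked 52 and ESM1 250.

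**Figure D2:**
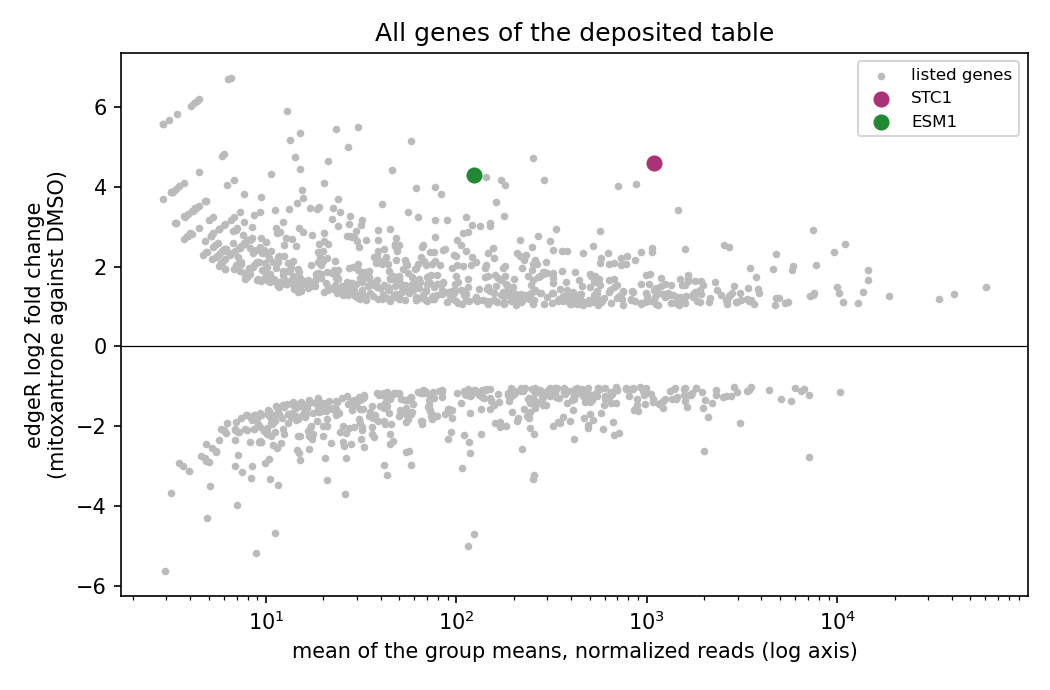
Fitted log2 fold change of mitoxantrone against DMSO (edgeR) plotted against the mean of the group means in normalized reads, on a log axis, for all 1305 listed genes. STC1 and ESM1 lie on the upper edge of the cloud for their levels, and the empty band around 0 is the authors' fold threshold.

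Levels of different genes can be compared per length, for which the deposited FPKM values (fragments scaled to gene length and library depth) serve. STC1 had FPKM levels of 1.86, 1.04 and 1.1 with DMSO and 26.7, 31.7 and 34.4 with mitoxantrone. ESM1 had FPKM levels of 0.4, 0.35 and 0.1 with DMSO and 5.81, 5.24 and 4.93 with mitoxantrone. STC1 was therefore the more abundant transcript in all 6 libraries. Its FPKM was 4.65, 2.97 and 11 times that of ESM1 in the DMSO libraries and 4.59, 6.05 and 6.98 times in the mitoxantrone libraries. The ratios of the treatments overlapped. The highest, 11 in DMSO replicate 3, rests on 5 raw reads of ESM1. Overlap does not test a difference, and a difference between the folds of the pair was not tested. Mean FPKM of STC1 went from rank 584 of the listed genes with DMSO to rank 95 with mitoxantrone, and that of ESM1 from rank 950 to rank 360. In bulk RNA, more expressing cells and more RNA per cell cannot be told apart.

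The genes shared their highest DMSO library but differed in the order of the mitoxantrone libraries. In normalized reads DMSO replicate 1 was the highest DMSO library for both, as for 34.6% of the listed genes. DMSO replicate 3 was the lowest for ESM1. For STC1 replicates 2 and 3 were alike, with replicate 3 lower in normalized reads and replicate 2 lower in FPKM. Within the mitoxantrone libraries the order was opposite. STC1 was highest in replicate 3 and lowest in replicate 1, ESM1 highest in replicate 1 and lowest in replicate 3. The 95% Poisson intervals of ESM1 there overlapped, at 229 to 297, 201 to 263 and 183 to 243 normalized reads. Its order was not tested against counting error. Library totals, computed from the deposited FPKM values, ranged from 14762530 to 17817817 reads.

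STC1 (ENSG00000159167) was listed at 23699428 to 23712320 on the minus strand of chromosome 8, and ESM1 (ENSG00000164283) at 54273692 to 54318499 on the minus strand of chromosome 5. The build behind these positions is not given in the sources used here. They are not those of GRCh38, where GENCODE v29 has STC1 at 23841915 to 23854807 and ESM1 at 54977864 to 55022671. The spans of 12893 and 44808 bases were the same in both. The lengths used for FPKM, 4149 bases for STC1 and 2695 for ESM1, equalled the number of bases in exons of any GENCODE v29 transcript of each gene (2 transcripts of STC1, 4 of ESM1), so the deposited values pool isoforms. No other annotated gene overlapped STC1. The long span of ESM1 overlapped the non-coding gene AC034238.1 on the same strand. Whether their exons overlap was not examined, and reads from any shared exon could not be assigned to one gene with certainty.

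Of 20 further genes of the stanniocalcin and insulin-like growth factor axis (stanniocalcin 2, pappalysins, IGFBPs, growth factors and receptors), 2 were in the table, IGFBP3 and IGFALS. The table holds 7.13% of all genes the authors tested, and which genes outside it were tested is not known here. IGFBP3, the main carrier of insulin-like growth factors in blood, had 1086, 1435 and 1315 normalized reads with DMSO and 483, 413 and 381 with mitoxantrone. It fell, with a log2 fold change of -1.59 ± 0.15 (SE; adjusted p = 2.1e-06, edgeR quasi-likelihood test, Benjamini-Hochberg). IGFALS, which encodes a subunit of the circulating IGFBP complex, had 11.2, 7.21 and 14.6 normalized reads with DMSO and 3.39, 4.17 and 1.07 with mitoxantrone, and did not pass (adjusted p = 0.081, edgeR). The list's count was thus 0 higher and 1 lower, against 56.7% of all listed genes called higher and 35.3% called lower. Of all calls 61.6% were higher, and with TMM and DESeq2 factors from the table this share was 41.7% and 30%. The list's median log2 fold change without STC1 was -1.75, against 1.26 over all listed genes. Without DMSO replicate 2 the count lower was 2. STC2, PAPPA and the remaining members were outside the table and not analysed here.

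Of 19 proteins that share the IGFBP-type domain with endocan, 2 (10.5%) were in the table, beside 7.13% of the genes tested. Both fell, where 35.3% of all listed genes were called lower. The 2 were IGFBP3 and CCN5 (listed as WISP2), a matricellular protein of the CCN family. CCN5 had 171, 208 and 340 normalized reads with DMSO and 6.78, 11.5 and 8.59 with mitoxantrone, so the treatments were far apart, with DMSO replicate 3 the highest. The log2 fold change of WISP2 was -4.72 ± 0.32 (SE; adjusted p = 7.9e-08, edgeR quasi-likelihood test). The median of the pair was -3.15, and the remaining members were not analysed here.

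Among 19 partners of endocan and genes of the VEGF family, 5 (26.3%) were in the table, beside 7.13% of the genes tested. This difference in shares was not tested. Of the 5, 4 rose and 1 fell, beside 56.7% and 35.3% of all listed genes. Their median log2 fold change was 1.64, against 1.26 over the table. ICAM1, an adhesion molecule whose binding to LFA-1 endocan is known to affect, had 231, 252 and 289 normalized reads with DMSO and 807, 816 and 784 with mitoxantrone. The treatments were well separated and each was tight, and the log2 fold change was 1.64 ± 0.14 (SE; adjusted p = 6.3e-07, edgeR quasi-likelihood test). ITGB2, the beta chain of LFA-1, had 427, 410 and 432 normalized reads with DMSO and 969, 1176 and 1109 with mitoxantrone, a log2 fold change of 1.36 ± 0.13 (SE). PGF, placental growth factor, a ligand of the VEGF receptor FLT1, had 16.3, 37.1 and 22.3 with DMSO and 141, 101 and 86.9 with mitoxantrone, a log2 fold change of 2.14 ± 0.29 (SE). FLT1 itself was nearly silent, at 1.72, 0 and 1.71 normalized reads with DMSO and 13.6, 10.4 and 6.44 with mitoxantrone. Its call (adjusted p = 0.017, edgeR) ended without DMSO replicate 1 or 3 (adjusted p = 0.053 and 0.051) and without mitoxantrone replicate 1 or 2 (0.095 and 0.06). FLT4, the receptor of lymphatic growth factors, fell from 79.1, 93.8 and 71.1 normalized reads to 35.1, 24 and 24.7. With DESeq2 factors from the table, 2 of the 4 passed as higher. VEGFA and its receptor gene KDR were outside the table and not analysed here.

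A list of proteoglycan core proteins, the class to which endocan belongs, held 36 genes besides ESM1. It included BCAM, an adhesion molecule that is not a proteoglycan and was outside the table. Of the 36 genes, 8 (22.2%) were in the table, beside 7.13% of the genes tested. Of these 8, 6 rose and 2 fell. Their median log2 fold change of 1.39 was close to the 1.26 of all listed genes, of which 56.7% were called higher and 35.3% lower. The others were not analysed here. The abundant ones were CD44, a hyaluronan receptor that can carry chondroitin sulphate, SDC4, the cell-surface heparan sulphate proteoglycan syndecan 4, and SRGN, the secretory granule proteoglycan serglycin. CD44 had 6175, 5804 and 5428 normalized reads with DMSO and 14536, 14899 and 14684 with mitoxantrone, a log2 fold change of 1.34 ± 0.14 (SE). SDC4 rose with a log2 fold change of 1.22 ± 0.14 (SE) and SRGN with 1.43 ± 0.17 (SE). These folds were small beside that of ESM1, while their levels per length were far higher, with mitoxantrone FPKM of 86.6 to 91.7 for CD44, 153 to 158 for SDC4 and 249.7 to 319 for SRGN. VCAN (versican), BCAN (brevican) and FMOD (fibromodulin), extracellular matrix proteoglycans, rose from low levels, with log2 fold changes of 1.78, 1.51 and 2.83. BCAN lost its call without mitoxantrone replicate 3 (adjusted p = 0.069, edgeR). GPC3 (glypican 3) and CSPG5 (neuroglycan C) fell, with log2 fold changes of -1.75 and -1.55. With DESeq2 factors from the table, 0 passed as higher in the edgeR test.

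Of 26 enzymes and transporters that build the chondroitin and dermatan sulphate chain, 1 was in the table, which holds 7.13% of the genes tested. CHST11, a sulphotransferase that acts on chondroitin, had 393, 316 and 270 normalized reads with DMSO and 598, 886 and 773 with mitoxantrone, without overlap. It rose with a log2 fold change of 1.20 ± 0.17 (SE; adjusted p = 1.2e-04, edgeR quasi-likelihood test), and with TMM or DESeq2 factors from the table, 0 of the list passed.

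Of 41 HIF targets besides STC1, 6 (14.6%) were in the table, beside 7.13% of the genes tested. Of these 6, 3 rose, 2 fell and 1 did not pass, near the 56.7% and 35.3% of all listed genes. Their median log2 fold change was 1.17, against 1.26 over the table. ANGPTL4, a secreted inhibitor of lipoprotein lipase, had 20.6, 17.5 and 17.1 normalized reads with DMSO and 475, 457 and 528 with mitoxantrone. Its log2 fold change of 4.71 ± 0.18 (SE; adjusted p = 9.5e-10, edgeR quasi-likelihood test) was close to that of STC1. PFKFB4, a regulator of glycolysis, rose less, with a log2 fold change of 1.08 ± 0.18 (SE). CA9, carbonic anhydrase 9, a gene widely used as a marker of hypoxia, had 61, 121 and 126 normalized reads with DMSO and 10.2, 12.5 and 16.1 with mitoxantrone. It fell, with a log2 fold change of -2.97 ± 0.33 (SE; adjusted p = 1.1e-05, edgeR), so CA9 and STC1 moved in opposite directions. DDIT4, a stress-induced inhibitor of mTOR signalling, also fell (-1.09 ± 0.16, SE). CA12 had 23.2, 7.21 and 20.6 normalized reads with DMSO and 29.4, 41.7 and 53.7 with mitoxantrone and did not pass (adjusted p = 0.057, edgeR). With DESeq2 factors from the table, 1 of the 3 passed as higher.

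Calcium and phosphate handling is the field in which stanniocalcin was discovered. Of 33 such genes besides STC1, 4 (12.1%) were in the table, beside 7.13% of the genes tested. Of these 4, 2 were higher and 2 lower, beside 56.7% and 35.3% of all listed genes. Their median log2 fold change of -0.44 lies between the 2 rises and the 2 falls and describes none of the 4 genes. VDR, the vitamin D receptor, had 615, 464 and 561 normalized reads with DMSO and 1027, 1276 and 1286 with mitoxantrone, and rose with a log2 fold change of 1.13 ± 0.15 (SE; adjusted p = 5.3e-05, edgeR quasi-likelihood test). CYP27B1, which makes active vitamin D, rose with 1.18 ± 0.19 (SE). CYP24A1, which degrades active vitamin D and is itself a target of the receptor, fell from 51.6, 55.6 and 47.1 normalized reads to 13.6, 11.5 and 12.9, a log2 fold change of -2.01 ± 0.29 (SE). CALB2, the calcium-binding protein calretinin, fell with -2.26 ± 0.49 (SE). With TMM or DESeq2 factors from the table, 0 of the list passed as higher. The phosphate carriers and calcium pumps were outside the table and not analysed here.

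**Figure D3:**
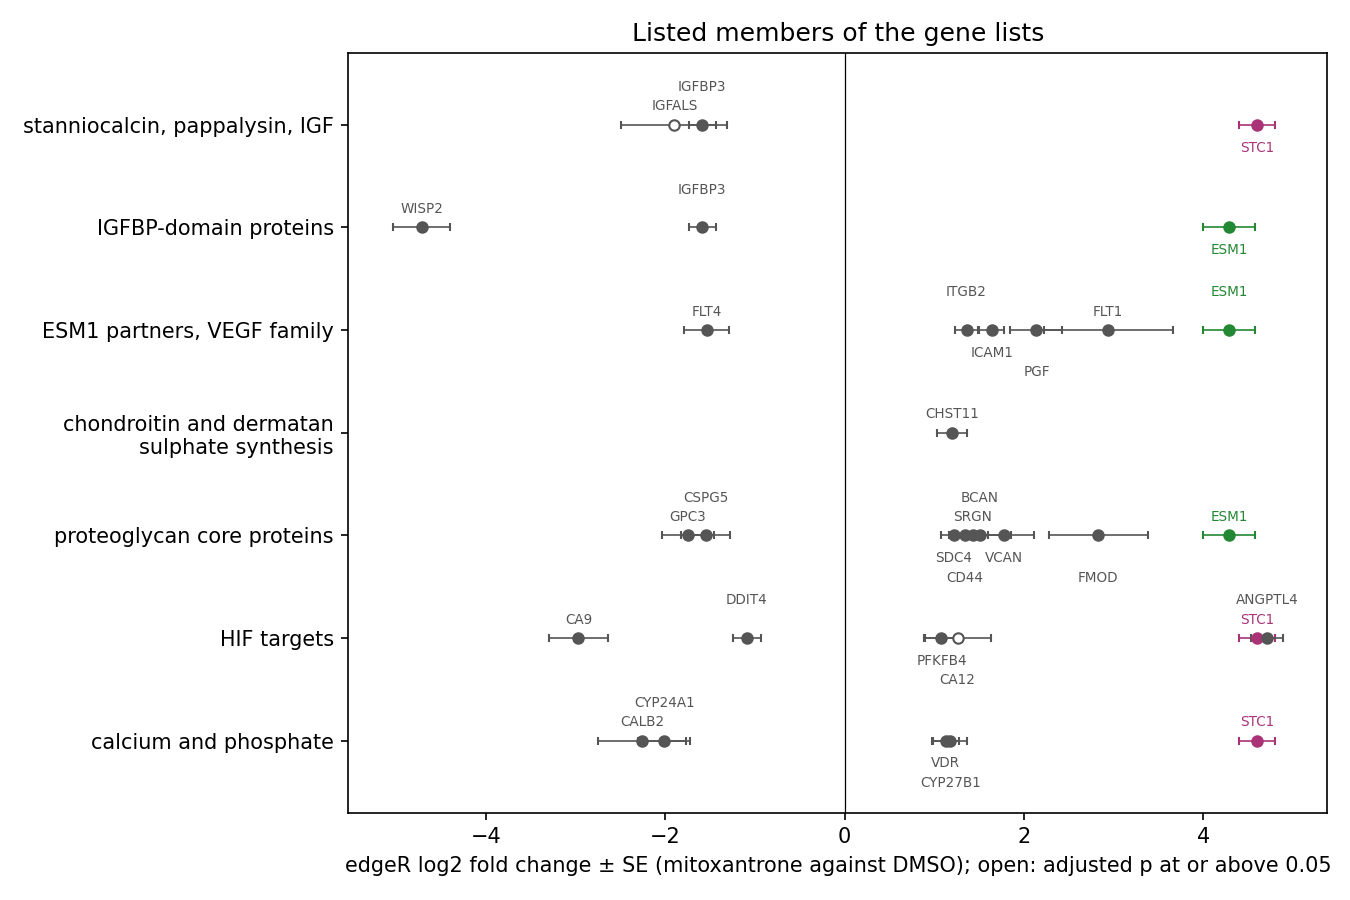
Fitted log2 fold change (edgeR) with its standard error for the members of the 7 gene lists that are reported here, mitoxantrone against DMSO; open points had an adjusted p at or above 0.05. STC1 and ESM1 lie to the right of all other points except ANGPTL4, while IGFBP3, WISP2, CA9 and CYP24A1 lie to the left of 0.

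The deposited gene ontology terms named here were chosen after their values were seen. Besides ESM1, 3 listed genes carried the term for binding of insulin-like growth factors (IGFALS, IGFBP3 and WISP2), of which 0 rose and 2 fell. Besides ESM1, 25 carried growth factor activity, 18 called higher and 6 lower. Besides STC1, 10 carried cellular response to hypoxia, 8 higher and 2 lower, and 7 carried hormone activity, 4 higher and 3 lower. Besides STC1, 100 carried extracellular space, 71 higher and 24 lower, beside 56.7% and 35.3% over the table. Calls are those of edgeR at the 0.05 threshold.

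The genes whose pattern lay nearest to each member were found by the Euclidean distance between profiles of log2(normalized reads + 0.5) over the 6 libraries, each profile set to 0 at its DMSO mean, among 652 genes at or above the median level. The treatment difference that chose the members is part of this distance, which is a description. ANGPTL4 was nearest to STC1 at 0.46, followed by CEACAM1, a cell adhesion receptor, at 0.65, AREGB at 1.19, SERPINB2, a plasminogen activator inhibitor, at 1.20 and the chemokine gene CXCL1 at 1.23. The median distance from STC1 was 6.09. ESM1 had AREG, which encodes the epidermal growth factor receptor ligand amphiregulin, nearest at 0.96, followed by AREGB at 1.07, SERPINB2 at 1.15, CXCL1 at 1.19 and CEACAM1 at 1.24, with a median of 5.88. AREG and AREGB are near-identical copies, so their shares of the reads are uncertain. STC1 and ESM1 were seventh in each other's order, at 1.36. CEACAM1 had 14.1 ± 5.69 normalized reads with DMSO and 270.3 ± 28.9 under mitoxantrone, and AREG 82.5 ± 30.2 and 1334 ± 74.6 (SD, n = 3 each).

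**Figure D4:**
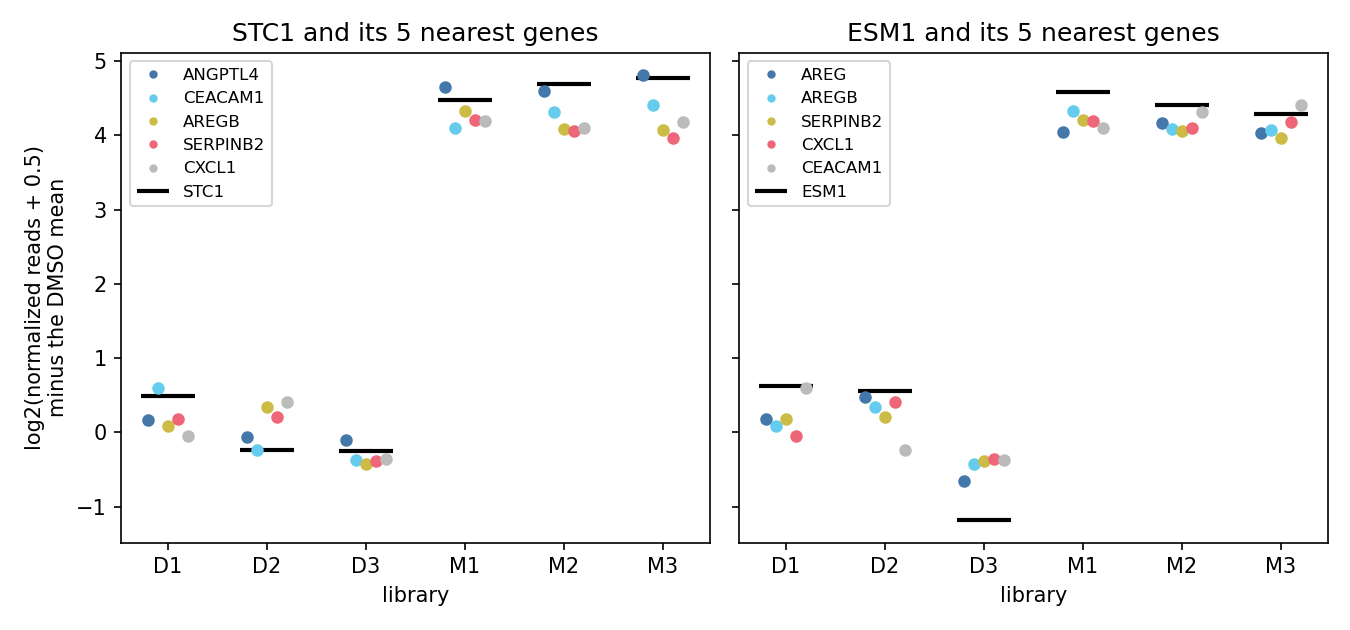
Log2(normalized reads + 0.5) minus the gene's own DMSO mean in each library, for STC1 (left, black bars) and ESM1 (right, black bars) with the 5 genes of smallest distance (coloured points). ANGPTL4 has the smallest distance from STC1, but lies below it in DMSO replicate 1 (0.163 against 0.494). ESM1 drops below its neighbours in DMSO replicate 3.

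Endocan is named after endothelial cells, so markers of other cell types were read beside it. Of 15 endothelial markers 2 were listed, CDH5 and FLT1, with a summed level of 386 to 518 normalized reads with DMSO and 198 to 236 with mitoxantrone. The sum is nearly all CDH5, which fell (log2 fold change -1.09), while the scarce FLT1 rose as given above and was at 0 in DMSO replicate 2. Of 12 epithelial markers 3 were listed, KRT8, KRT18 and ELF3, with a summed level of 50570 to 67130 with DMSO and 123800 to 154600 with mitoxantrone, none at 0 in any library. That sum is mostly KRT8 and KRT18. The keratins rose (1.48 and 1.19 on the log2 scale) and ELF3 fell (-1.28). With DESeq2 factors from the table both keratins lost their calls, KRT18 also with TMM factors, while ELF3 kept its call. Of 10 fibroblast markers COL1A1 alone was listed, at 293 to 392 and 120 to 159, and of 10 leukocyte markers CD14 and ITGAM, with sums of 48.1 to 74.5 and 38.5 to 59.4. COL1A1 fell (-1.30 on the log2 scale), as did CD14 (-1.16), and ITGAM rose (2.53). CD14 lost its call without DMSO replicate 3 or mitoxantrone replicate 3 (adjusted p = 0.083 and 0.062, edgeR), and ITGAM without mitoxantrone replicate 2 (0.061). ITGAM also lost it with TMM or DESeq2 factors from the table. Listed were 13.3% of the endothelial, 25% of the epithelial, 10% of the fibroblast and 20% of the leukocyte markers. The table holds 7.13% of the genes tested. The part of these markers in the levels of STC1 and ESM1 was not tested, and markers outside the table were not analysed here.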

How the data were processed

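One file was used, the authors' table of selected genes. Per the file headers, its deposited columns are read counts and FPKM of each library, the authors' mean normalized count (a signal), and the authors' log2 fold change, standard error, Wald score, p-value and adjusted p-value. Tools in the submitters' processing notes, with no role stated, are HTSeq 0.6.1, HISAT2 2.0.1, Cufflinks 2.2.1, DESeq2 and cutadapt 1.9.1. Build, annotation, strand and whether poly(A) selection or rRNA removal was used are not stated.

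Size factors were solved from counts and mean normalized counts (largest relative error 5.0e-10), and library totals from FPKM, counts and lengths. The number of genes tested, 18313, makes the ratios of adjusted to raw p-values whole ranks. Counts of all 1305 genes were fitted with the edgeR 4.0.16 quasi-likelihood test (R 4.3.3) for treatment alone, without a filter, and Benjamini-Hochberg adjustment over 18313 tests at 0.05, and the script was tested on simulated data. The fit saw only genes already selected as changed, and how that moves its p-values was not tested. Intervals are exact Poisson (95%, scipy 1.17.1). No replicates were duplicates (chi-square per gene 2.91 to 25.4). Columns of per-library values left unused numbered 0.

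The members, the 7 gene lists and the 4 cell type marker lists were chosen with earlier results of these data known. Named genes were STC1 and ESM1, list members in the table, and the 5 nearest genes of each member at or above the median level. Of the HIF targets, 1 is counted but not reported here by name.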

Additional observations from a re-analysis of the deposited data

How the results depend on the processing

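STC1 and ESM1 were higher with mitoxantrone under every alternative run. Leaving out 1 library at a time gave log2 ratios of means of 4.48 to 4.90 for STC1 and 3.88 to 4.57 for ESM1. With TMM and DESeq2 factors from the table STC1 stood at 3.92 and 3.62, and ESM1 with the latter at 3.30; these factors shift the median of all listed genes by -0.69 and -0.99 on the log2 scale, because they centre a table selected as changed. A pseudocount of 1 on FPKM gave 3.78 for STC1 and 2.31 for ESM1, whose DMSO FPKM lies below that pseudocount. Same-numbered libraries did not deviate together (correlation of deviations -0.10, -0.05 and 0.07 across genes). Whether they were prepared as pairs is not stated, and these values cannot decide it. The mean of the log2 ratios of same-numbered libraries was 4.65 for STC1 and 4.51 for ESM1. That mean is the same however the libraries are paired, so it shows no effect of a block. With the replicate block in the fit, 736 genes were called higher and 463 lower, against 740 and 461 without it.

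Listed genes called numbered 1201, 1021 to 1178 without 1 library, and 731 with DESeq2 size factors; those called higher numbered 622 to 715 without 1 library, 366 with TMM and 219 with DESeq2 size factors, and those called lower 395 to 463 without 1 library. The share of calls that were higher was 61.6%, 41.7% and 30% with the authors', TMM and DESeq2 size factors. The counts per list leave out STC1 and ESM1. With TMM factors the stanniocalcin and insulin-like growth factor list had 2 lower, the chondroitin synthesis and calcium lists 0 higher each, the proteoglycans 4, the endocan partners 3 and the HIF targets 2 higher. With DESeq2 factors the stanniocalcin list had 2 lower, the endocan partners 2 higher, the chondroitin synthesis, proteoglycan and calcium lists 0 higher each and the HIF targets 1 higher. Without 1 library in turn, the stanniocalcin list had 0 to 0 higher and 1 to 2 lower, the IGFBP-domain list 0 to 0 and 2 to 2, the endocan partners 3 to 4 and 1 to 1, the proteoglycans 5 to 6 and 2 to 2, and the HIF targets 3 to 4 and 2 to 2. Of the members, ESM1 is the more limited by depth, with 39 reads over the DMSO libraries against 285 for STC1. Some list genes, such as FLT1, were scarcer.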

Other observations

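The listed gene nearest to each member on its chromosome, chosen after its values were seen, was higher with mitoxantrone. Of all listed genes 56.7% were called higher, so nothing is read from these neighbours for the members. ADAM28, a membrane metalloprotease gene 439 kb from STC1 by the deposited positions, went from 5.89 ± 3.2 to 23.6 ± 8.75 normalized reads (SD, n = 3 each; log2 fold change 1.94 ± 0.47 SE, adjusted p = 0.015, edgeR). CDC20B, 90.3 kb from ESM1, went from 5.61 ± 2.9 to 21 ± 3.62 normalized reads (SD, n = 3 each; log2 fold change 1.91 ± 0.45 SE, adjusted p = 0.013, edgeR). Genes between them that are outside the table were not analysed here.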
